A study of Mus musculus with 21 samples.

Results

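Transcripts of 10 genes that neuronal activity is known to induce or regulate were followed in primary cortical neurons treated with AdipoRon, an agonist of both adiponectin receptors. The genes were chosen by symbol, and all 10 were listed among the 22040 genes of the 4 deposited tables. They are Inhba, Penk, Pcsk1, Plat, Ptgs2, Nrn1, Crispld2, Sorcs1, Rgs2 and Rasl11a. The name activity-dependent secreted factors describes only some of them. Ptgs2 sits in the endoplasmic reticulum and nuclear envelope, Nrn1 is anchored to the cell surface, Sorcs1 spans the membrane, and Rgs2 and Rasl11a act inside the cell.

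Neurons had been isolated from cortices of newborn mice, either wildtype (WT) or carrying a human tau cDNA with the P301S mutation under the prion promoter (Tau). Pre-formed fibrils (3 μg/mL) were added to the Tau neurons on day 7, which were then kept for 18 days, and glia were reduced with 1 μM AraC. For the last 24 h, cultures were given 10 μM AdipoRon or DMSO, its solvent. The labels give 5 Tau DMSO, 5 Tau AdipoRon, 5 WT DMSO and 6 WT AdipoRon cultures, 21 in all. The study's methods describe seeding for the transgenic neurons, while its results date the RNA of both genotypes from seeding. Whether the WT cultures also received fibrils is therefore unclear. If they did not, mutant tau and fibrils cannot be told apart in a comparison of the genotypes. According to the study's reporting summary, the same animal gave samples to each drug treatment, so DMSO and AdipoRon cultures may be paired by animal. The 10 μM dose is that of the sample tags, while the protocol text deposited with the samples gives the same number in mM.

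When a neuron fires, calcium entry switches on early transcription factors such as Npas4, Egr and Nr4a proteins, and these together with CREB drive a later set of genes. Many products of the later set leave the cell or change what it releases. Inhba encodes the activin A subunit, Penk the precursor of enkephalins, Pcsk1 a convertase that cuts peptide precursors in dense-core vesicles, and Plat the tissue plasminogen activator. In cortical neurons Ptgs2 (cyclooxygenase 2) makes prostaglandin precursors on demand, and Nrn1 (neuritin) promotes neurite growth and synapse maintenance.

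The values described are the authors' mean expression in log2 CPM (read counts scaled to library size), 1 value per gene and table, each taken over all cultures of 2 groups. One table pools both DMSO groups (10 cultures), another both AdipoRon groups (11), another both Tau groups (10) and another both WT groups (11). No value per culture was used, so the spread between cultures and the depth of each library are unknown, no difference below has a replicate check, and no p-value or error is given. The pool of AdipoRon cultures minus that of DMSO cultures gives the response with the genotypes pooled, and the pool of Tau minus that of WT gives the genotype difference with the treatments pooled. A log2 difference of 1, which is 2-fold, was used as the limit for counting genes. How the tables were normalized is not given in the sources used here, and they were treated as normalized separately. Summing all 21 cultures through the DMSO and AdipoRon pools, or through the Tau and WT pools, gave totals for each gene whose log2 ratio had an SD of 0.0049 over 19399 genes. This does not measure an offset in scale between the DMSO and AdipoRon pools.

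Of the 10 genes, 6 were lower with AdipoRon by at least the limit, and 0 were higher. Over all 19693 genes of both tables, 1.75% were lower by the limit and 0.675% were higher. The share among genes with a mean log2 CPM over 4 was 0.804% lower and 0.34% higher. That subset leaves out Ptgs2 and Inhba, and within it 4 of the 10 genes were lower by the limit and 0 higher. Pcsk1, Ptgs2 and Nrn1 were lower by a log2 difference of more than 2.5, Rgs2, Penk and Inhba by a little over 1, and Sorcs1, Plat, Crispld2 and Rasl11a by less than 0.5. The median over the 10 genes was -1.12, beside 0.02 over all genes. Since the 10 genes were named with earlier results of these data known, these counts describe them and are no independent evidence of a direction.

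**Figure D1:**
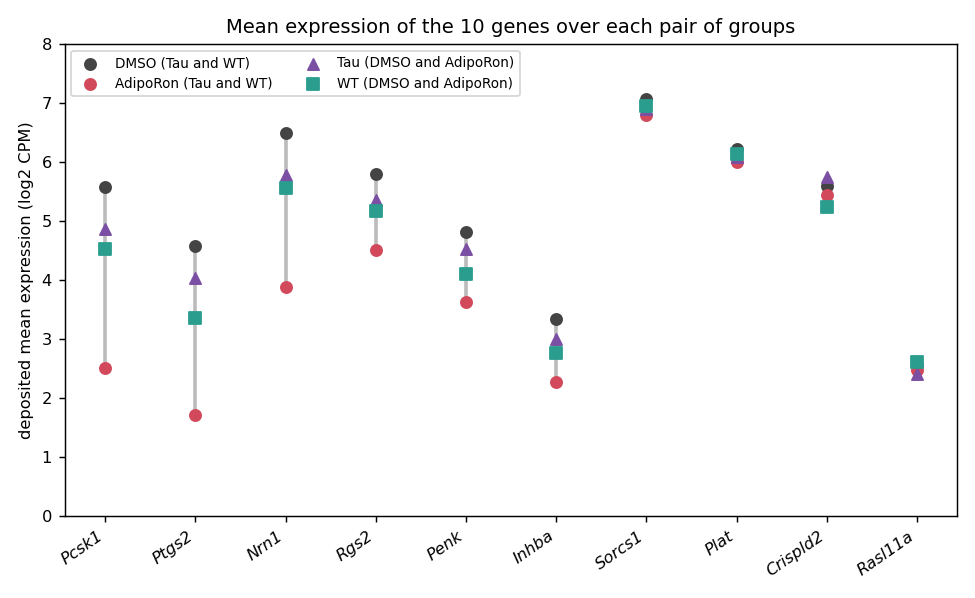
Deposited mean expression (log2 CPM) of the 10 genes over each pair of groups: both DMSO groups, both AdipoRon groups, both Tau groups and both WT groups. The grey line joins the DMSO and AdipoRon pools and spans a log2 difference of -3.07 for Pcsk1 and of -0.09 for Rasl11a.

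The upstream sequences are shown for the genes past the limit, because cAMP response elements (CRE), which bind CREB, are the best known element through which activity reaches such promoters. RefSeq promoters (250 bases before to 50 after the annotated start, GRCm38.p6, the assembly also called mm10) were matched by symbol for 7 of the 10 genes. Plat, Nrn1 and Penk had no entry. Capitals mark a CRE half-site (TGACG, or CGTCA on the other strand), and the whole palindrome TGACGTCA where a half-site meets its mirror image. All are written 5′ to 3′ along the gene. Pcsk1 lies at chr13:75089607-75089906 (plus strand), Ptgs2 at chr1:150099781-150100080 (plus), Rgs2 at chr1:144004100-144004399 (minus) and Inhba at chr13:16011601-16011900 (plus).
Pcsk1: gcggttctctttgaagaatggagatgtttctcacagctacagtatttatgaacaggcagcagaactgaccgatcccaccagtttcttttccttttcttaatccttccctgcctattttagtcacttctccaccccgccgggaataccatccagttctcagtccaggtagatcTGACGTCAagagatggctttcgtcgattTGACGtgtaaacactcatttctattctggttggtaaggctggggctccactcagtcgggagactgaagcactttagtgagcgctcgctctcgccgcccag
Ptgs2: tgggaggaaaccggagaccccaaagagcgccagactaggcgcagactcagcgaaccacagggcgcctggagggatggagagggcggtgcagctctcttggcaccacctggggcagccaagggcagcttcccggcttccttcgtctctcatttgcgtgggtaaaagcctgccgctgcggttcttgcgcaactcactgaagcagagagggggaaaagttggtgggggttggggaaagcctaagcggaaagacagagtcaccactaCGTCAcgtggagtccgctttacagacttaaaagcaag
Rgs2: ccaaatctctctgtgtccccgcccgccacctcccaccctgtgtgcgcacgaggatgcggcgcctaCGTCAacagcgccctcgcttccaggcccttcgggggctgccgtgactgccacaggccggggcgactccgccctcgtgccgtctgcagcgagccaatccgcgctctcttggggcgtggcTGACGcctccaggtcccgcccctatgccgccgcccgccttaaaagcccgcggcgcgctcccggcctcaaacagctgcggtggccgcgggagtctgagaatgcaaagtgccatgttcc
Inhba: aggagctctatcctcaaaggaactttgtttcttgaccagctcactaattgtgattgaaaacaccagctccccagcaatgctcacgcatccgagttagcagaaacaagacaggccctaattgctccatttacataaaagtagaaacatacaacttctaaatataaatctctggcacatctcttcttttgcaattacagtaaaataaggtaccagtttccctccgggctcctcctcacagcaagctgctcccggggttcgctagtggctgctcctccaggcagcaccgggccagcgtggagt

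Pcsk1 held 1 whole CRE, its first base at -78 from the start, and a further half-site at -50. In Ptgs2 there was 1 half-site, which began 13 bases after the annotated start, and Rgs2 had half-sites at -185 and -67. The Inhba window held none. Outside the genes past the limit, Rasl11a had 1 half-site at -89, and Crispld2 and Sorcs1 had none. Of all 32851 RefSeq promoters of this length, 1.79% held the whole CRE and 20.8% a half-site on either strand, where every whole CRE also counts as a half-site. An AP-1 element (TGANTCA, both strands) was found in 0 of the 7 windows and in 7.81% of all promoters. The early growth response element GCGTGGGCG was found in 0 of the 7 windows on either strand and in 0.612% of all promoters. These matches describe letters in the window and say nothing of which factor was bound.

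Pcsk1 showed the lowest difference of the 10 genes. The authors' mean was 47.7 CPM over the DMSO cultures and 5.68 CPM over the AdipoRon cultures, with 29.1 CPM over the Tau and 23.1 CPM over the WT cultures. Expression was thus 8.4-fold lower with AdipoRon (log2 difference -3.07), and only 9 of 19693 genes lay further down. Other enzymes and helpers of neuropeptide maturation lay near 0, since 0 of 11 were past the limit in either direction and their median was -0.04. Among them, the amidating enzyme Pam had -0.47 and Chgb, a granule cargo protein, 0.36. Scg5, the helper of the related convertase Pcsk2, had -0.19, and Scg3, which binds granule membranes, had -0.17.

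Ptgs2 ranked 14th from the lowest. Its mean was 23.8 CPM with DMSO and 3.28 CPM with AdipoRon, a 7.25-fold lower level (log2 difference -2.86). The Tau pool stood at 16.4 CPM and the WT pool at 10.2 CPM. Ptgs1, the constitutive cyclooxygenase, and the other genes of prostaglandin synthesis and reception did not share this pattern. None of the 15 was lower by the limit, 1 was higher, and the median was 0.13. The gene past the limit was Ptgds, a prostaglandin D synthase, with 1.02. Ptgfr, the receptor for prostaglandin F, had -0.40, the prostacyclin synthase Ptgis -0.29, and the prostaglandin transporter Slco2a1 -0.47.

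Nrn1 stood at 89.5 CPM with DMSO and at 14.7 CPM with AdipoRon. This is a 6.09-fold lower level (log2 difference -2.61), at rank 25 from the lowest. Its means over the Tau and WT cultures were 55.1 and 47.0 CPM. The related gene Nrn1l was scarce and had -0.52.

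Rgs2, which speeds the shut-off of Gq-coupled receptor signals, had 55.2 CPM with DMSO and 22.6 CPM with AdipoRon (2.44-fold lower, log2 difference -1.29). The Tau and WT pools held 41.0 and 36.0 CPM. Of 17 further RGS family genes measured in both tables, 3 were lower by the limit and 0 higher, and the median was -0.12. Rgs4 had -2.18 and Rgs8 -1.35, and the third gene, Rgs13, had -2.46 from a DMSO mean of only 1.16 (log2 CPM). Rgs14 had -0.70 and Rgs1 0.31. Rgs2 therefore lay within the span of its family, whose other measured members mostly lay near 0.

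Penk had 28.2 CPM with DMSO and 12.4 CPM with AdipoRon (2.28-fold lower, log2 difference -1.19), and 23.1 and 17.2 CPM over the Tau and WT cultures. Among 6 other opioid peptide and receptor genes, the nociceptin precursor Pnoc had -2.69 and the nociceptin receptor Oprl1 1.02, so that ligand and receptor lay past the limit in opposite directions. The delta receptor Oprd1, at which enkephalins act, had -0.15, and Pomc had -0.14 at a log2 CPM under 1. The list's median was -0.15.

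Inhba was the sixth gene past the limit, at 10.1 CPM with DMSO and 4.84 CPM with AdipoRon (2.08-fold lower, log2 difference -1.06). With 1 CPM added to each mean before the logarithm, its difference was -0.92, which is short of the limit, and 5 of the 10 genes were then past it. Its pools of Tau and WT cultures held 7.97 and 6.79 CPM. In the activin pathway 0 of 15 genes were past the limit, and the median was -0.04. The lowest was Smad7, an inhibitor of the pathway, with -0.82. The activin antagonist Fst had -0.39, the receptor Acvr1 -0.19, and the co-receptor Tgfbr3 0.50.

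The 4 remaining genes differed little between the treatments. Sorcs1, a sorting receptor of the VPS10 family, had 134.8 CPM with DMSO and 110.5 CPM with AdipoRon (log2 difference -0.29), and 119.6 and 123.9 CPM over the Tau and WT cultures. Plat had 74.9 and 63.6 CPM in the same order of treatments (-0.24), and 67.6 and 70.7 CPM over Tau and WT. Crispld2, a secreted protein of the CAP family, had 48.1 and 43.6 CPM (-0.14), with 53.9 CPM over Tau and 37.6 CPM over WT cultures. Rasl11a, a small Ras-like GTPase, had 5.91 CPM with DMSO and 5.57 CPM with AdipoRon (-0.09), beside 5.31 and 6.08 CPM over Tau and WT. Between 13.1% and 30.2% of all genes had differences as low as these or lower.

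The families of these 4 genes were mixed. None of the 4 other VPS10 receptors was past the limit, with Sorcs3 at -0.64, Sorl1 at -0.32, Sort1 at 0.11 and Sorcs2 at 0.16. Of the RASL genes, Rasl10a was higher with AdipoRon by 2.02, while Rasl11b had -0.40, Rasl10b -0.45 and Rasl12 0.36. The plasminogen activator system had 1 of 10 genes past the limit, the annexin A2 partner S100a10 at -1.07, and a median of 0.04. The inhibitor Serpini1 (neuroserpin) had -0.37, and the protease Mmp3 had 0.82. Crispld1, the nearest relative of Crispld2, had -1.09 from a DMSO mean of 2.24 (log2 CPM).

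**Figure D2:**
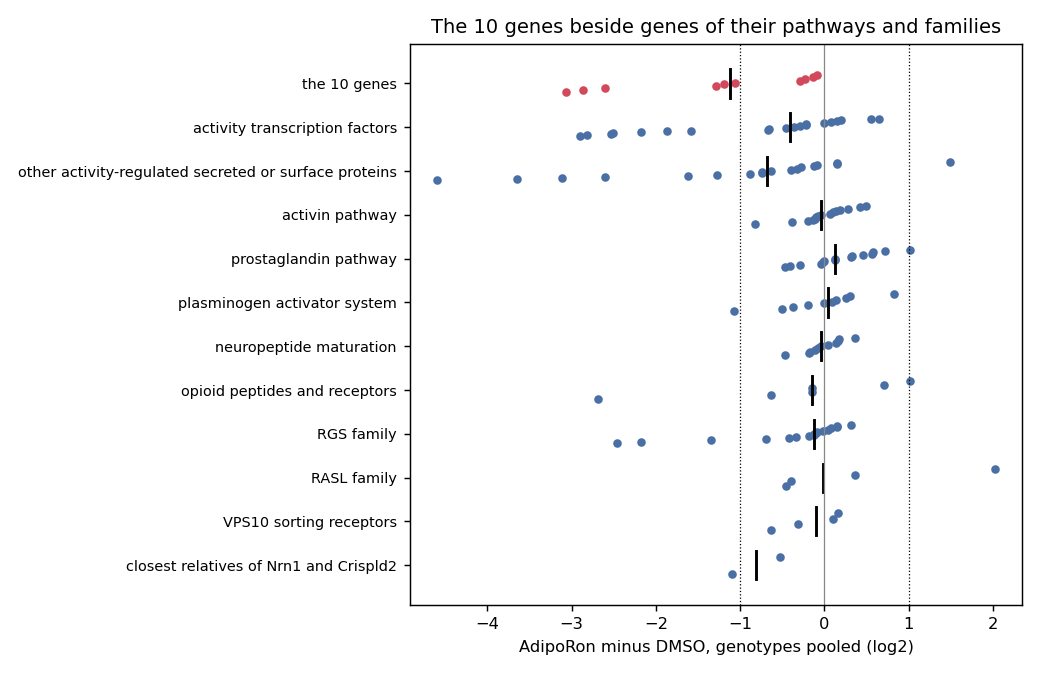
AdipoRon minus DMSO with genotypes pooled (log2) for the 10 genes (red) and for each measured gene of 11 lists of their pathways and families (blue). Black bars are medians and dotted lines the limit of 1 in each direction. The 10 genes have a median of -1.12, medians of the blue lists run from 0.13 (prostaglandin pathway) down to -0.81 (closest relatives of Nrn1 and Crispld2), and single genes such as Rasl10a (2.02) lie apart.

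The wider set of activity-regulated genes was also split. Of 20 early transcription factors and their companions, 7 were lower by the limit, 0 were higher, and the median was -0.40. Npas4 had -2.90, Egr4 -2.82 and Egr3 -2.53, whereas Jun had 0.64. Of 18 other activity-regulated secreted or surface proteins, 6 were lower, 1 was higher and the median was -0.69. Here Adcyap1 (the peptide PACAP) had -4.59, Nptx2 -3.65 and the granin-like precursor Vgf -2.60, whereas Nptx1, from the same pentraxin family as Nptx2, was higher by 1.49.

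**Figure D3:**
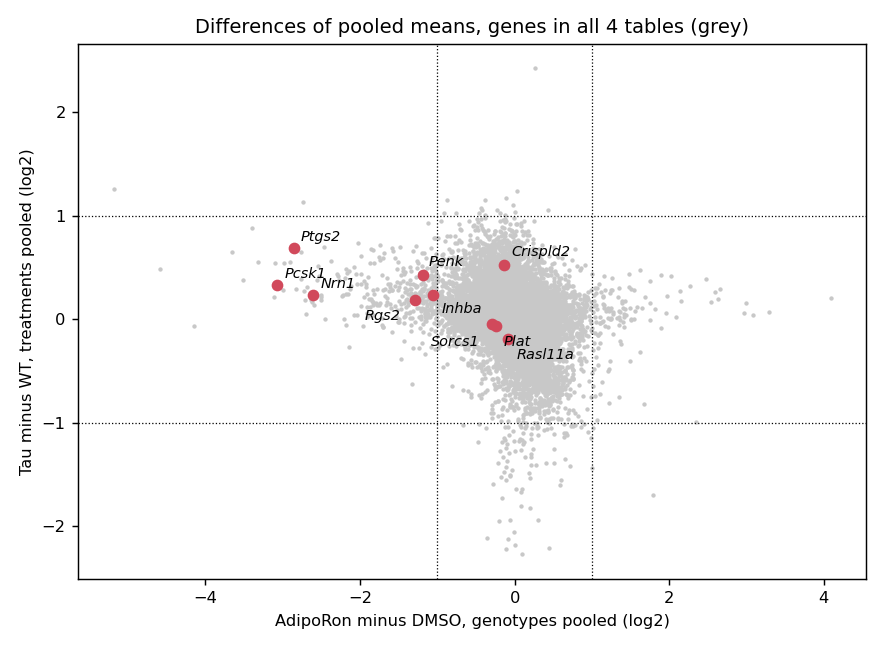
AdipoRon minus DMSO with genotypes pooled against Tau minus WT with treatments pooled (both log2), for genes in all 4 tables (grey) and the 10 genes (red). Dotted lines mark the limit of 1. Pcsk1, Ptgs2 and Nrn1 lie below -2.5 on the horizontal axis, and all 10 genes lie between the dotted lines of the vertical axis.

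Between the genotypes with the treatments pooled, 0 of the 10 genes were higher and 0 lower in Tau neurons by the limit, beside 0.126% and 0.508% of all 19890 genes. Ptgs2 was 1.61-fold higher in the Tau pool (log2 difference 0.68), and 2.91% of all genes had a larger difference in either direction. Crispld2 had 0.52, Penk 0.42, Pcsk1 0.33, Inhba 0.23, Nrn1 0.23 and Rgs2 0.19. Rasl11a had -0.20, Plat -0.06 and Sorcs1 -0.05. The WT pool has 6 AdipoRon cultures among its 11 and the Tau pool 5 among 10, which by itself raises Tau minus WT for a gene that is lower with AdipoRon. With each treatment at its pooled mean in both genotypes, this imbalance would give 0.10 for Ptgs2, 0.11 for Pcsk1, 0.10 for Nrn1 and 0.01 for Crispld2. Less that amount, Ptgs2 had 0.58, Crispld2 0.51, Penk 0.37, Pcsk1 0.22, Inhba 0.18, Nrn1 0.13 and Rgs2 0.13.

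The 4 means over pairs of groups also bound the mean of each single group, since no mean can be below 0 CPM. These ranges assume that a deposited mean is the log2 of the mean CPM over its cultures, and they are limits of arithmetic, not error bars. For Ptgs2, Tau DMSO neurons lay between 25.1 and 32.7 CPM and WT DMSO neurons between 14.8 and 22.4 CPM. Tau AdipoRon neurons had at most 7.62 CPM and WT AdipoRon neurons at most 6.35 CPM. The ranges of the treatments did not overlap in either genotype, and the ratio of DMSO to AdipoRon was no less than 3.29 in Tau and 2.33 in WT neurons. Ptgs2 was also the only gene of the 10 whose Tau DMSO range lay wholly above its WT DMSO range. With the groups of each table weighted equally, Pcsk1 joined it. How many of all genes do so was not computed, and the spread between cultures is unknown.

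Pcsk1 lay between 44.5 and 58.1 CPM in Tau DMSO and between 37.2 and 50.8 CPM in WT DMSO neurons, beside at most 13.6 and 11.4 CPM with AdipoRon. The ratio of DMSO to AdipoRon was no less than 3.27 in each genotype. Nrn1 lay between 75.8 and 110.2 CPM in Tau DMSO and between 68.9 and 103.3 CPM in WT DMSO neurons, and had at most 34.4 and 28.7 CPM with AdipoRon, with ratios of no less than 2.2 and 2.4. For these 3 genes, under this assumption, the mean with AdipoRon was lower in each genotype taken alone. For Rgs2, Penk and Inhba the ranges of DMSO and AdipoRon overlapped in both genotypes, and how much of the pooled difference each genotype carries could not be read from these means. With AdipoRon, Rgs2 had at most 50.6 CPM in Tau and 42.2 CPM in WT neurons, Penk 27.6 and 23.0 CPM, and Inhba 10.7 and 8.94 CPM.

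**Figure D4:**
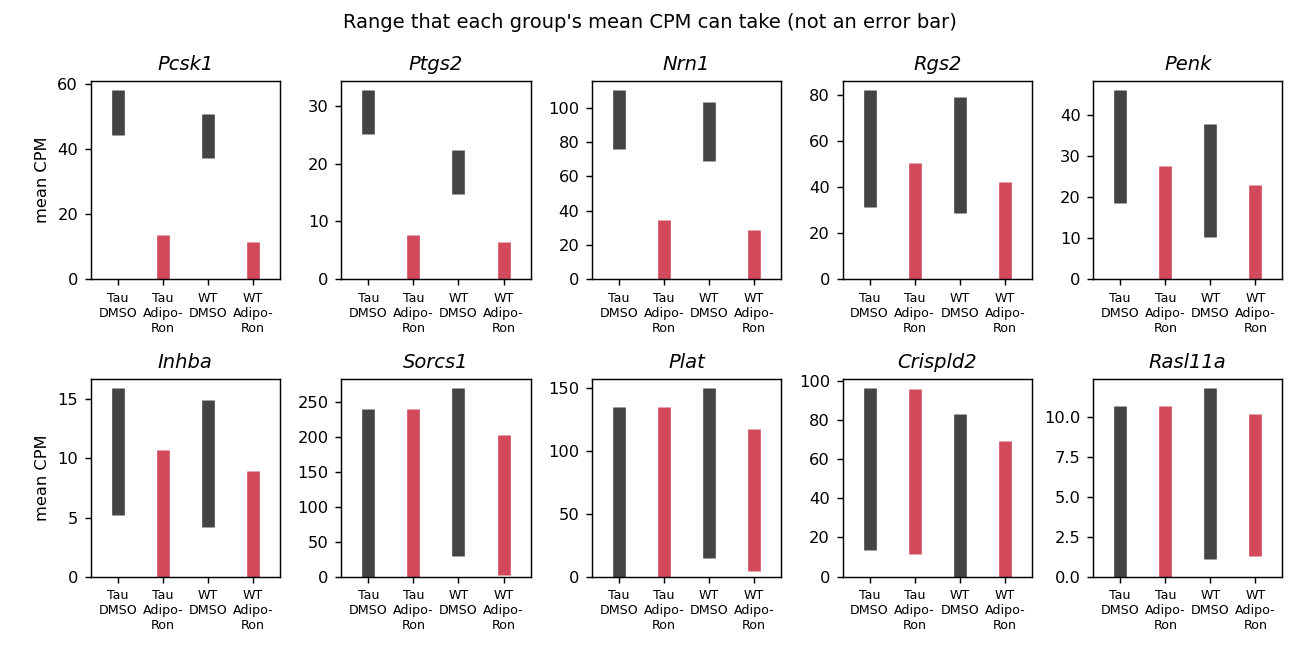
Range that the mean CPM of each group can take, for each of the 10 genes, given the 4 deposited means over pairs of groups (grey, DMSO; red, AdipoRon; scales differ between panels). In Pcsk1, Ptgs2 and Nrn1 the DMSO and AdipoRon ranges are apart in both genotypes, and in the other 7 genes they overlap in at least 1 genotype. The share of all genes with ranges apart was not computed.

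One contrast of single groups is fixed by the 4 means, that of Tau neurons with AdipoRon against WT neurons with DMSO, and it can be reached by 2 routes. Pcsk1 was lower in the treated Tau neurons by 37.2 or 38.3 CPM, Nrn1 by 68.9 or 70.9, Rgs2 by 28.5 or 29.3, Ptgs2 by 14.8 or 15.2, Penk by 10.2 or 10.6 and Inhba by 4.21 or 4.3 CPM. Sorcs1 was lower by 30.4 or 29.4 CPM, Plat by 14.7 or 15.5 and Rasl11a by 1.21 or 1.12 CPM. Crispld2 was the only one that was higher, by 11.7 or 13.2 CPM. Differences in CPM depend on a gene's level and do not order the genes by relative change. The Sorcs1 pools ran from 110.5 to 134.8 CPM, beside 3.28 to 23.8 CPM for Ptgs2.

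Per kilobase of its canonical GENCODE transcript, Sorcs1 had the highest mean of the 10 genes over the 4 tables (5.01 in log2 CPM per kb), at the 87.8th percentile of 17363 genes. Plat (4.74) and Nrn1 (4.50) followed. Inhba, with a long transcript, was the lowest (0.25, at the 22.8th percentile), and Ptgs2 had 1.17. Whether neighbours in this order differ beyond their spread could not be tested.

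The nearest genes by the 4 means, each centred on its own average, were sought among 12809 genes with a log2 CPM over 2 in every table. The distance given is Euclidean, in log2 units over 4 values, and tables share cultures. Near to Nrn1 were Vgf (0.07) and the early gene Nr4a1 (0.08). Near to Ptgs2 were Egr3 (0.31) and Nr4a1 (0.41). For Pcsk1 the nearest were the potassium channel gene Kcnv1 (0.36), Pnoc (0.36) and Vgf (0.40). Penk had Diras2 (0.06), the phosphatase gene Dusp5 (0.10) and Tbx2 (0.10), Rgs2 had Kcnt2 (0.02), Itpka (0.04) and Adra1d (0.04), and Inhba had Nol4 (0.01), Kcnj4 (0.02) and Unc5d (0.02). Crispld2 was nearest to Eng (0.02), Sstr1 (0.03) and Gm15564 (0.05). Plat, Rasl11a and Sorcs1, which differed little, each had 3 genes within 0.01, respectively Adgrl3, Bex2 and Gfpt2, then Hipk2, Ifitm2 and Jam3, and Hif3a, Pdzd9 and Zfp518b.

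The cultures labelled as neurons held neuronal RNA together with that of other cells. All 10 neuronal markers were measured, and their CPM summed to between 3843 and 4413 over the 4 pools. The 8 astrocyte markers summed to between 4617 and 4941 CPM, and the 8 oligodendrocyte lineage markers to between 1175 and 1534 CPM. The endothelial marker Cldn5 was not listed. With AdipoRon, neuronal markers had a median difference of -0.25, with 1 of 10 lower by the limit (Neurod6, -1.32). Astrocyte, microglial, oligodendrocyte lineage and vascular markers had medians of 0.05, 0.25, -0.26 and -0.09, with 0 past the limit. Between genotypes, the microglial markers were lower in Tau, with a median of -1.06, 5 of 8 past the limit and summed levels of 210.3 CPM over Tau and 425.7 CPM over WT cultures. Oligodendrocyte lineage markers had a median of -0.49, while neuronal, astrocyte and vascular markers had 0.10, 0.03 and 0.18. The part of these shifts in the values of the 10 genes was not tested, and in bulk RNA fewer cells of a type and less RNA per cell cannot be told apart.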

How the data were processed

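Polyadenylated RNA of 21 cultures, grouped by genotype and treatment from their labels, had been sequenced. According to the study's methods, the authors trimmed the reads, used STAR for alignment to mm10 and RSEM for quantification, and fitted edgeR's generalized linear model; the paper's results name GRCm39 and the tables are named after Rsubread. Library normalization and gene filters are not given in the sources used here. The authors deposited a mean expression per gene and table as log2 CPM, which was the only column used. Fold changes, likelihood ratios, p-values and false discovery rates of the authors' own comparisons were left out.

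Means were subtracted between tables that share no culture, with a limit of 1 (log2). Ranges of group means weighted each culture equally. The arithmetic of differences and ranges was checked on simulated cultures whose pools were plain means of CPM. This check could not test whether the deposited means behave in that way. Python 3.11.15, pandas 2.3.3 and numpy 2.4.6 were used. Transcript lengths came from GENCODE M39. Low values are compressed by the prior count that the authors' edgeR mean contains.

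Named were the 10 genes, from each other list the 3 lowest and the highest gene with a log2 CPM over 0, and the 3 nearest genes; some of these are not reported here. Ptgs1, Nrn1l, Rgs13 and Cldn5, and the promoters of Rgs2 and Inhba, were added after values were seen. Members and lists were chosen with earlier results of these data known. Promoters were to be shown for the 3 lowest genes, of which Nrn1 had no entry, and protein sequences were not used here. Alternatives were a median shift, a pseudocount of 1 CPM, limits of 0.5 and 1.5, genes with a log2 CPM over 4, genes in all 4 tables and equal weights of groups.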

Additional observations from a re-analysis of the deposited data

How the results depend on the processing

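All of these values rest on means over cultures with no spread, so a sample of cultures that stands apart could not be seen. No paired analysis was possible because the deposited columns used are means over cultures and carry no replicate numbers; for the same reason no replicate could be left out. At a limit of 1.5 the genes of the 10 that were lower with AdipoRon numbered 3 in place of 6, and at 0.5, 2 of them (Ptgs2 and Crispld2) were higher in Tau. Limits of 0.5 and 1.5 gave 1259 and 132 lower and 859 and 38 higher genes with AdipoRon in all, and 699 and 25 lower and 839 and 2 higher genes in Tau. With log2(CPM + 1), 5 of the 10 genes were lower with AdipoRon by the limit, without Inhba (-0.92), and the counts over all genes were 169 and 65 with AdipoRon, and 50 and 3 in Tau. Among genes with a log2 CPM over 4 they were 78 and 33, and 21 and 0. Subtracting the effect of unequal group sizes, chosen after seeing the data, left 15 genes higher in Tau. Ptgs2 had -2.53 with AdipoRon as log2(CPM + 1). Of 53 counts recomputed, 34 stayed within 1.5 times. Many of these 34 were counts of the 10 genes that were 0 under both settings, so the tally is a weak measure of stability. All 10 genes were in all 4 tables, so that setting could not change their counts. Of 50 values of single genes, 49 moved by less than the robust SD over all genes and 0 of those past the limit changed sign. Subtracting the median of all genes shifted every AdipoRon difference by 0.02 and every Tau minus WT difference by 0.002. These shifts are below the robust SD (0.22 and 0.14), so values under this setting could not count as moved. Weighting the groups of each table equally left the ranges of DMSO and AdipoRon apart in 3 genes, as before. It put Pcsk1 beside Ptgs2 with a Tau DMSO range above that of WT DMSO. The least ratios of DMSO to AdipoRon in WT neurons then fell to 3.07 for Pcsk1, 2.11 for Ptgs2 and 2.19 for Nrn1, while those in Tau neurons rose. Totals by the 2 routes then matched less closely (SD 0.011 in place of 0.0049).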
